A study of Homo sapiens with 4 samples.

Results

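The genes described here are 33 well known targets and regulators of the tumour suppressor p53, chosen as a list of gene symbols. They were read in LNCaP, an androgen-responsive human prostate cancer cell line. A gene counted as measured where the array held a probe set, a group of short oligonucleotides for one transcript, annotated to that symbol alone. This held for 31 of the 33 genes, among 19583 genes in all, and BTG2 and FDXR were not analysed here. RNA had been profiled on 4 arrays: 2 of LNCaP-ERG cells, transduced with a lentivirus for the ETS transcription factor ERG with red fluorescent protein, and 2 of LNCaP-vector cells, transduced with the control lentivirus for the fluorescent protein. Both kinds of cells grew in the same regular medium and were seeded overnight before extraction, and no drug or DNA-damaging agent is named for either. The promoter that drives the transgene is not given in the sources used here. No source states that the arrays of a group were separate cultures or transductions. A p-value here thus rests on the spread among these 4 arrays alone, and that spread may be technical.

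The labelled cell type was checked against its markers. All 9 luminal markers measured, among them KLK3, TMPRSS2 and HOXB13, had group means of 9.63 to 12.96 on the log2 scale, while the group means of the 6 leukocyte markers lay at or below 3.59. Of the 9, 3 were lower in LNCaP-ERG without overlap (33.3%, against 19.1% of all genes) and 1 higher (11.1%, against 21.7%). The lower ones were KLK3 at a log2 fold change of -0.13, KLK2 at -0.29 and TMPRSS2 at -0.20. The higher one was FOLH1 at 0.08. The endothelial markers summed to linear intensities of 103.4 and 112.5 in the LNCaP-ERG arrays and of 85.0 and 94.7 in the LNCaP-vector arrays, with all but VWF of the 5 dim. The 7 fibroblast markers summed to 483.0 and 517.7 in the LNCaP-ERG arrays and to 388.8 and 404.4 in the LNCaP-vector arrays, with all but COL1A1 dim. The 4 neuroendocrine markers, all but ENO2 dim, summed to 336.1 and 341.3 in the LNCaP-ERG arrays and to 277.1 and 306.7 in the LNCaP-vector arrays. ENO2 makes up most of these sums, and SYP lay the other way without overlap, at a log2 fold change of -0.45. Their part in the results was not tested. Dim means that both group means lay below a log2 intensity of 5.79, under which 90% of 34 genes specific to other organs lay. The 4 probe sets of ERG were all dim, with log2 fold changes of -0.24 to 0.12, and so do not check the labels. None was higher in LNCaP-ERG without overlap, and those at -0.24 and -0.19 were lower without overlap. Raised ERG RNA, by which the group is named, was thus not seen on these arrays.

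p53 is a transcription factor that is held low in unstressed cells by the ubiquitin ligase MDM2 and its partner MDM4. DNA damage and other stresses free it from this control. It then binds a response element of paired half-sites and switches on genes that stop the cell cycle, repair DNA, shift metabolism or kill the cell, and it switches on MDM2 as well, which closes a feedback loop. Some of its targets have elements near the start of transcription and others in introns or far upstream.

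The promoters of some members show such elements, and 6, picked by hand, are printed. MDM2, AEN, FAS and DDB2 were picked for their sites, and PMAIP1 and PLK2 for their lower values. The 6 are no ranking by difference, as TP53I3, with the highest log2 fold change of the members, is not among them. The sequences are RefSeq's (build GRCh38.p14), and 29 of the 33 members had at least 1 window of 250 bases before and 50 after a start, 45 windows in all. A pair of p53 half-sites with at most 2 mismatches and a spacer of up to 13 bases, reading the same on both strands, was found in 6 of these 45 windows (13.3%), of MDM2, AEN, FAS, DDB2 and FDXR. It was found in 2.93% of all 35116 windows. Windows of a gene can overlap, and those of MDM2 with the element do, so its element was counted more than once. Capitals mark the half-sites, and the first 5 stretches end at the base before the start.

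MDM2 (chr12:68808817-68809016, + strand): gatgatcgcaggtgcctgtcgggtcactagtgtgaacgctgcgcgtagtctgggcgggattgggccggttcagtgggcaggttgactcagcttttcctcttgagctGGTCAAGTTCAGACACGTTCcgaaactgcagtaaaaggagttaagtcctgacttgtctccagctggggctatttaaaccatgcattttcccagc
AEN (chr15:88621140-88621339, + strand): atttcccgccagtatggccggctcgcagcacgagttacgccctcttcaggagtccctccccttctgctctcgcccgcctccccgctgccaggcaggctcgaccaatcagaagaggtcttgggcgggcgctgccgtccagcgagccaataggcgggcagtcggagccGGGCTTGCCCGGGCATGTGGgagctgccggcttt
FAS (chr10:88991231-88991430, + strand): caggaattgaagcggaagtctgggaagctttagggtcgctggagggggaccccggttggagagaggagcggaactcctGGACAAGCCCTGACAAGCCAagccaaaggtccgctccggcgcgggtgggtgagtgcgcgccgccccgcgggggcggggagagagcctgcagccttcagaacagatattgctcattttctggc
PMAIP1 (chr18:59899796-59899995, + strand): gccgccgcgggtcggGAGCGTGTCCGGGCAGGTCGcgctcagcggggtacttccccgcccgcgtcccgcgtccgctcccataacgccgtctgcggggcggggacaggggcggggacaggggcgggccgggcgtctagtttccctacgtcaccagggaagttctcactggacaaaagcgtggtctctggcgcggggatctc
PLK2 (chr5:58460087-58460286, - strand): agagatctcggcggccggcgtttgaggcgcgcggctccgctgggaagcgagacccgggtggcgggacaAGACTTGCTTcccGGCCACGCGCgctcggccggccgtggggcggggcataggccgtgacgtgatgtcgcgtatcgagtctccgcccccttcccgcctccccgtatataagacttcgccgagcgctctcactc
DDB2 (chr11:47214975-47215003, + strand): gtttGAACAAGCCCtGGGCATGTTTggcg

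The DDB2 element, with 0 mismatches and a spacer of 1 base, lies 6 to 26 bases after an annotated start, so only the site is shown. The MDM2 element has 2 mismatches and lies 75 to 94 bases before a start in the downstream promoter, the one p53 is known to use. PMAIP1 and PLK2 are shown because they read lower in LNCaP-ERG cells, and their best elements have 3 mismatches each, beyond the limit of the search. The core CCGGAAG, to which ETS factors such as ERG bind, was found on either strand in 4 of the 45 windows (8.89%), of MDM4, RPS27L, AEN and FDXR, against 10.3% of all windows. A match is a run of letters and not a measured binding site, and a window without one says nothing on the factor.

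None of the p53 targets and regulators passed the test, and their values lay on both sides of 0. The median log2 fold change of the 31 genes was 0.08, against 0.01 over all genes, with 21 above 0 and 10 below. By limma's moderated test with Benjamini-Hochberg adjustment over all 19583 genes, 0 of the 31 passed an adjusted p of 0.05, a threshold that 0.0102% of all genes passed (0.00511% higher and 0.00511% lower). An unadjusted p under 0.05 was reached by 7 higher and 2 lower members, that is 22.6% and 6.45% of the members against 5.61% and 4.11% of all genes. Both LNCaP-ERG arrays lay above both LNCaP-vector arrays in 16 of the 31 genes (51.6%, against 21.7% of all genes). They lay below in 5 (16.1%, against 19.1%), and the groups overlapped in 10. The list was not tested against other genes. In such bulk RNA, a lower level in every cell and fewer cells with the transcript cannot be told apart. Without 1 array the count of higher members at an unadjusted p under 0.05 was 3 without the first LNCaP-ERG array (beside 3.28% of all genes in that fit) and 3 without the second (5.91%). It was 3 without the first LNCaP-vector array (5.42%) and 2 without the second (4.35%). These fits have 1 residual degree of freedom less, and borrow the spread of the lone array from the complete group.

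The members' median lay on the same side in both arrays of each group. Set against each gene's own mean over the 4 arrays, the members' median was 0.04 and 0.05 on the log2 scale in the LNCaP-ERG arrays and -0.05 and -0.03 in the LNCaP-vector arrays. Among the 27 members that were not dim, the median log2 fold change was 0.11, against 0.00 over the 9287 such genes of the array. Both LNCaP-ERG arrays were above both LNCaP-vector arrays in 16 of these 27 and below in 4, where 24.2% and 24.5% of those 9287 genes lay in these ways. The 7 higher and 2 lower members at an unadjusted p under 0.05 were all among the 27, beside 5.58% and 4.88% of those genes. None of the 27 passed limma's adjusted p, beside 0.0215% of those genes (0.0108% higher and 0.0108% lower). PLK3, APAF1, FAS and EDA2R were the 4 dim members, and their values give no exact size.

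**Figure D1:**
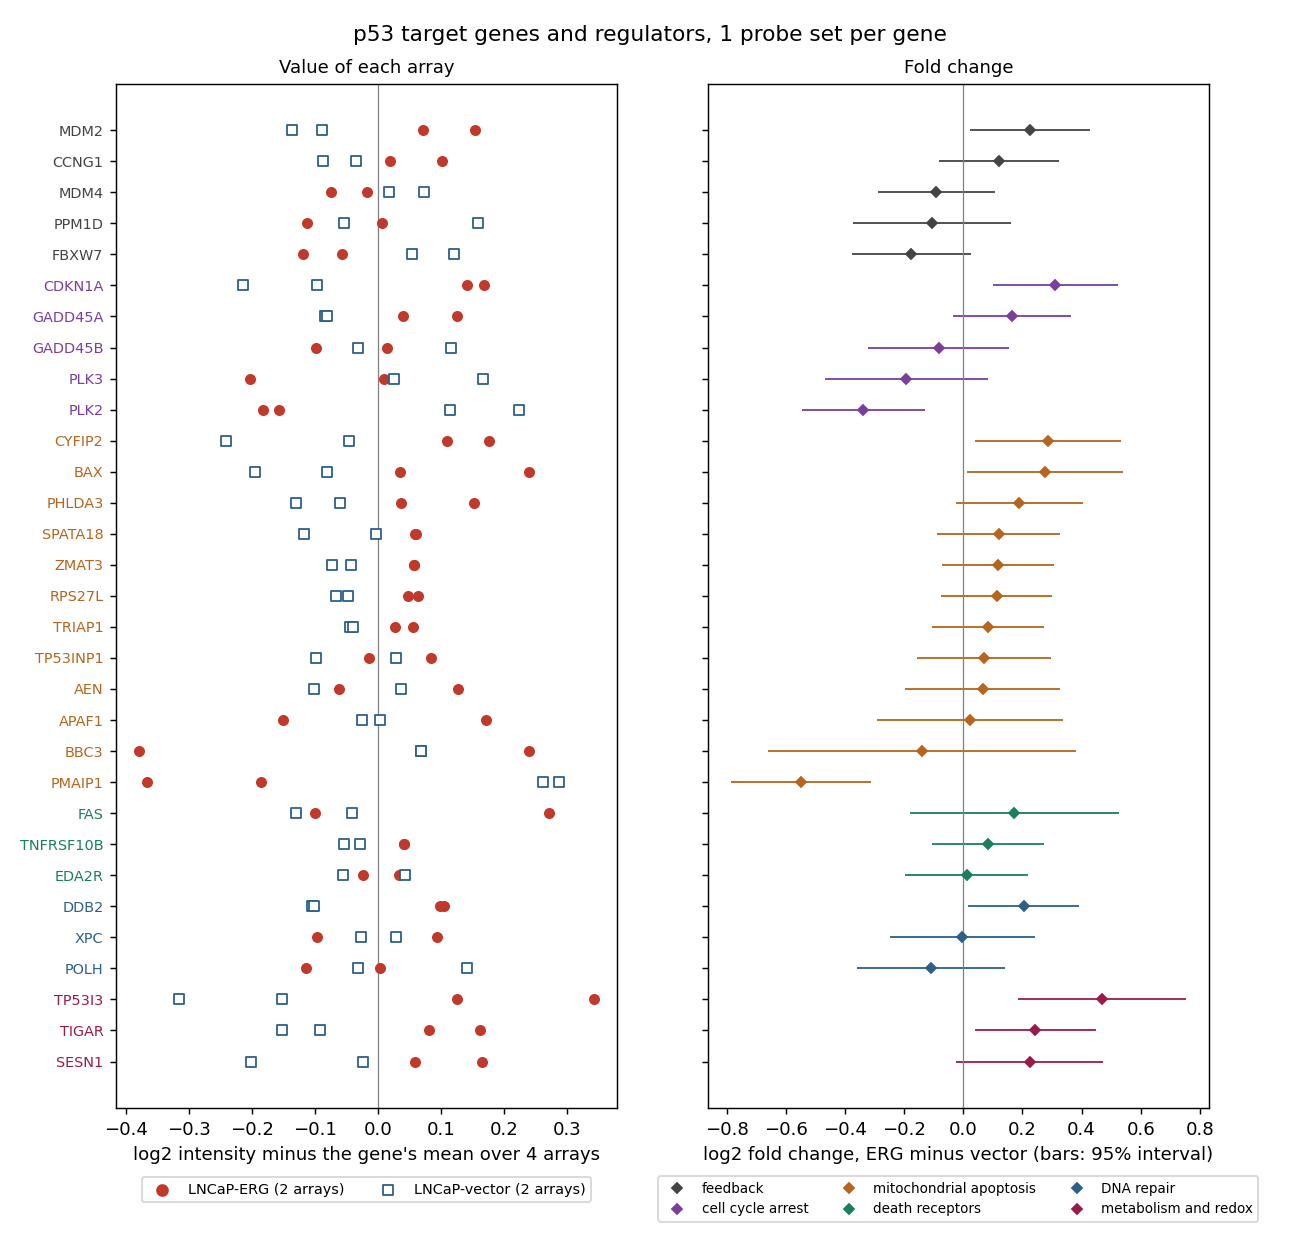
Left, log2 intensity of each array minus the gene's mean over the 4 arrays, for the 31 measured genes by role (circles, the 2 LNCaP-ERG arrays; squares, the 2 LNCaP-vector arrays). Right, log2 fold change of LNCaP-ERG over LNCaP-vector with its 95% interval. TP53I3 at 0.47 and PMAIP1 at -0.55 stand at the ends, and 9 of the 31 intervals leave out 0.

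The feedback genes were divided. MDM2, the ligase that marks p53 for destruction, had log2 intensities of 9.79 and 9.87 in the LNCaP-ERG arrays and of 9.63 and 9.58 in the LNCaP-vector arrays. The groups did not overlap, and the LNCaP-ERG mean was 1.17-fold higher (log2 fold change 0.22, standard error 0.08, 95% interval 0.02 to 0.43, adjusted p = 0.47 from limma). CCNG1, cyclin G1, which recruits a phosphatase to MDM2, had 0.12 (adjusted p = 0.67 from limma), also without overlap. MDM4, the partner of MDM2 that blocks the activation domain of p53, lay the other way without overlap, at 9.37 and 9.42 in the LNCaP-ERG arrays and at 9.51 and 9.46 in the LNCaP-vector arrays (log2 fold change -0.09, adjusted p = 0.75 from limma). FBXW7, a substrate receptor of an SCF ubiquitin ligase, likewise had -0.18 (adjusted p = 0.56 from limma). PPM1D, the phosphatase WIP1 that switches off the damage response, overlapped between the groups at -0.11 (95% interval -0.37 to 0.16).

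Among genes that stop the cell cycle, CDKN1A and PLK2 differed in opposite directions. CDKN1A encodes p21, the inhibitor of cyclin-dependent kinases and the best known p53 target. It lay at 9.21 and 9.18 in the LNCaP-ERG arrays and at 8.94 and 8.82 in the LNCaP-vector arrays. That is 1.24-fold higher (log2 fold change 0.31, standard error 0.08, 95% interval 0.10 to 0.52, adjusted p = 0.39 from limma). PLK2, a polo-like kinase of centriole duplication, lay at 8.18 and 8.20 in the LNCaP-ERG arrays and at 8.47 and 8.58 in the LNCaP-vector arrays. Its fold change on the log2 scale was -0.34 (standard error 0.08, 95% interval -0.55 to -0.13, adjusted p = 0.37 from limma). The gap between the groups exceeded the gap within either for both genes.

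The GADD45 paralogues, which are stress sensors that bind p21 and PCNA, did not lie alike at their brightest probe sets. GADD45A had 9.47 and 9.38 in the LNCaP-ERG arrays against 9.26 and 9.26 in the LNCaP-vector arrays, without overlap (log2 fold change 0.16, adjusted p = 0.57 from limma). GADD45B overlapped, at -0.08 (95% interval -0.32 to 0.15). Its other probe sets were divided, each without overlap. The one that was not dim had 0.12, and the dim ones had 0.21 and -0.35. The difference between GADD45A and GADD45B was not tested. PLK3, another polo-like kinase of the stress response, was dim and had -0.19 (adjusted p = 0.62 from limma). Its other probe sets, also dim, had 0.25 without overlap and -0.28 with overlap.

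The apoptosis genes held both the most upward values and the largest downward one. Of 12 genes, 10 had a log2 fold change above 0, 7 were higher without overlap (58.3%, against 21.7% of all genes) and 1 was lower (8.33%, against 19.1%). PMAIP1, which encodes NOXA, a BH3-only protein that neutralizes MCL1, lay at 8.03 and 8.21 in the LNCaP-ERG arrays and at 8.69 and 8.66 in the LNCaP-vector arrays. The 1.46-fold lower mean in LNCaP-ERG (log2 fold change -0.55, standard error 0.09, 95% interval -0.79 to -0.31, adjusted p = 0.28 from limma) was the largest difference of any member. PMAIP1 passed under trended and robust moderation of the variance (adjusted p = 0.031 from limma), with adjusted p-values of 0.031 to 0.60 over the settings that keep all 4 arrays. Of the 9 members given with a standard error here, it was the only one to pass under any of them.

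BAX, the pore-forming protein of the outer mitochondrial membrane, lay at 6.69 and 6.90 in the LNCaP-ERG arrays and at 6.46 and 6.57 in the LNCaP-vector arrays. The log2 fold change was 0.28 (standard error 0.10, 95% interval 0.01 to 0.54, adjusted p = 0.50 from limma). CYFIP2, a subunit of the WAVE actin regulator that p53 induces, lay at 8.94 and 8.88 in the LNCaP-ERG arrays and at 8.72 and 8.53 in the LNCaP-vector arrays. On average it read 1.22-fold higher (log2 fold change 0.29, standard error 0.10, 95% interval 0.04 to 0.53, adjusted p = 0.46 from limma). Neither gene's groups overlapped, although the second LNCaP-vector array was low for CYFIP2 and the second LNCaP-ERG array high for BAX. Without those single arrays the log2 fold change was 0.19 for CYFIP2 and 0.17 for BAX.

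Smaller upward values without overlap came from PHLDA3, which competes with AKT for membrane lipids (0.19), SPATA18, a mitochondrial quality control protein (0.12), and ZMAT3, an RNA-binding protein (0.12). RPS27L, a ribosomal protein paralogue (0.11), and TRIAP1, an inhibitor of apoptosome formation (0.08), completed them. Their adjusted p-values ran from 0.56 to 0.76 in limma's test. TP53INP1, an autophagy and stress protein, AEN, an apoptosis-enhancing nuclease, and APAF1, the scaffold of the apoptosome, overlapped between the groups. BBC3, which encodes the BH3-only protein PUMA, had no settled direction. It lay at 6.12 and 5.50 in the LNCaP-ERG arrays, on either side of the LNCaP-vector arrays, where the deposited value of both was 5.95 (log2 fold change -0.14, 95% interval -0.66 to 0.38).

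Of the death receptors, TNFRSF10B, the TRAIL receptor DR5, was bright, and its groups lay close together without overlap. Its log2 intensity was 10.79 in both LNCaP-ERG arrays and 10.72 and 10.70 in the LNCaP-vector arrays (log2 fold change 0.08, 95% interval -0.11 to 0.27). FAS, the receptor of FAS ligand, was dim, at 5.79 and 5.42 in the LNCaP-ERG arrays and at 5.47 and 5.39 in the LNCaP-vector arrays. The FAS element printed above lies before the most downstream of its annotated starts and after the others. The groups of FAS overlapped. EDA2R, the ectodysplasin A2 receptor, lay at 3.14 to 3.24 over the 4 arrays, below the median of 3.38 of the genes of other organs.

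Of the 3 DNA repair genes, 1 was higher without overlap (33.3%, against 21.7% of all genes) and 0 were lower (0%, against 19.1%). DDB2, the damage-recognition protein of nucleotide excision repair and the bearer of the perfect element above, lay at 7.93 in both LNCaP-ERG arrays and at 7.72 and 7.73 in the LNCaP-vector arrays. Arrays of a group thus lay far closer together than the groups (log2 fold change 0.20, standard error 0.07, 95% interval 0.02 to 0.39, adjusted p = 0.48 from limma). XPC, its partner in damage recognition, overlapped between the groups, with a log2 fold change of -0.0030 (95% interval -0.25 to 0.24). POLH, the polymerase that copies past ultraviolet lesions, overlapped at -0.11 (95% interval -0.36 to 0.14).

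All 3 measured genes of metabolism and redox control were higher without overlap (100%, against 21.7% of all genes). TP53I3, a quinone oxidoreductase known as PIG3, had the highest log2 fold change of the members. It lay at 6.85 and 7.07 in the LNCaP-ERG arrays and at 6.41 and 6.57 in the LNCaP-vector arrays. That is a 1.38-fold higher mean (log2 fold change 0.47, standard error 0.11, 95% interval 0.18 to 0.75, adjusted p = 0.37 from limma). TIGAR, a phosphatase that lowers fructose-2,6-bisphosphate and slows glycolysis, lay at 8.06 and 8.14 in the LNCaP-ERG arrays and at 7.82 and 7.88 in the LNCaP-vector arrays. That is 1.18-fold higher (log2 fold change 0.24, standard error 0.08, 95% interval 0.04 to 0.45, adjusted p = 0.45 from limma). SESN1, a leucine sensor that restrains mTORC1, lay at 9.15 and 9.04 in the LNCaP-ERG arrays and at 8.78 and 8.96 in the LNCaP-vector arrays (log2 fold change 0.22, adjusted p = 0.54 from limma). The margin was narrow for SESN1, whose second LNCaP-vector array came near the LNCaP-ERG arrays.

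**Figure D2:**
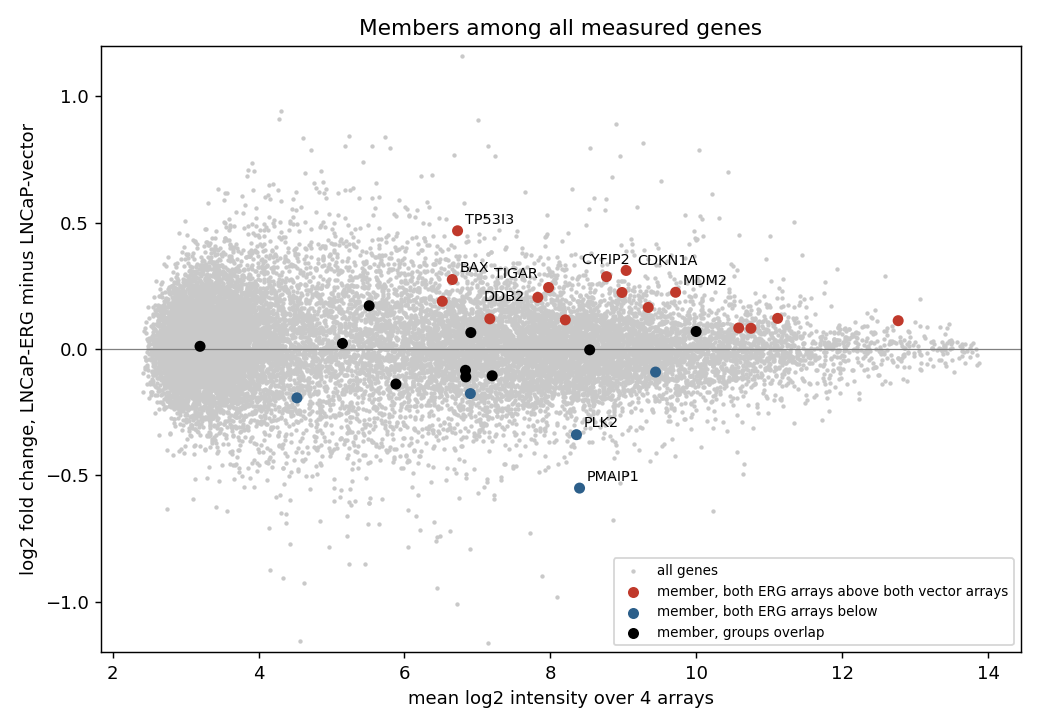
Log2 fold change of LNCaP-ERG over LNCaP-vector (y axis) against mean log2 intensity over the 4 arrays (x axis) for all genes in grey and the members as larger points (red, both LNCaP-ERG arrays above; blue, both below; black, overlap), with the 9 members at an unadjusted p under 0.05 named. The members lie within the cloud of all genes, and 14 genes, none of them a member, fall beyond the y axis.

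The 31 genes had 79 probe sets, and 19 genes had more than 1. Over all 39464 such probe sets tested together, 0 of the 79 passed limma's test, as did 0 of all (0%). An unadjusted p under 0.05 was reached by 9 higher and 3 lower probe sets, beside 4.3% and 4.41% of all. The LNCaP-ERG arrays were both above in 28 and both below in 12, against 18.9% and 20.1% of all. Of the 79, 34 were dim. Probe sets of 1 gene share its transcripts and are no replicates of each other.

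PMAIP1, BAX and CYFIP2 gave like values at both of their probe sets. The second set of PMAIP1 lay at 7.22 and 7.68 in the LNCaP-ERG arrays and at 8.11 and 8.03 in the LNCaP-vector arrays (log2 fold change -0.62). The second set of BAX had 0.33 and that of CYFIP2 had 0.46, both without overlap. The 5 sets of ZMAT3 were divided, with 0.12 to 0.28 at the 4 brighter ones and -0.16, without overlap, at the dim one.

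MDM2 did not give like values. Only the brightest of its 8 probe sets separated the groups, with the 0.22 above, and the other 7 had -0.10 to 0.08 with overlap. Of these 7, 5 were dim and 2 were not, at 0.08 and 0.01. The mean over all 8 had a log2 fold change of 0.02 (adjusted p = 0.96 from limma), and the brightest plain probe set, of a kind made to match a single gene, had 0.01. The MDM2 value therefore rests on 1 probe set. Of the 7 probe sets of MDM4, 4 were lower without overlap, 1 was higher without overlap, and the others overlapped. The lowest had -0.35 and the higher one 0.30, and both were dim. The 3 sets of RPS27L lay both ways, each without overlap, with 0.11 at the brightest and 0.05 and -0.18 at the others. For FBXW7 and PHLDA3, too, only the brightest set separated the groups. The other sets of FBXW7 had -0.04 and -0.06, and the second set of PHLDA3, which was not dim, had 0.03. The largest value of any member probe set, 0.74 at a second POLH set, came from the second LNCaP-vector array alone, at 4.45 against 5.84 to 6.13 in the other arrays.

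**Figure D3:**
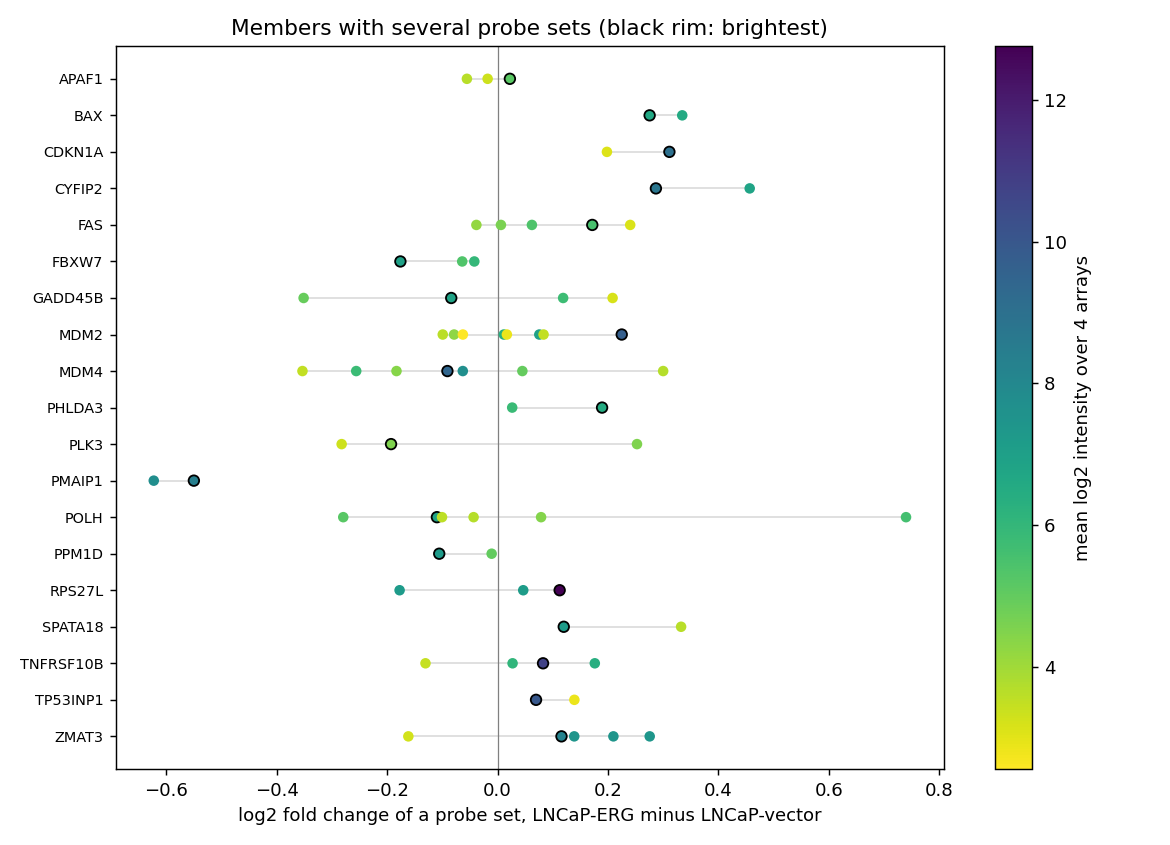
Log2 fold change of LNCaP-ERG over LNCaP-vector (x axis) for every probe set of the 19 members that have several (y axis), coloured by mean log2 intensity, with the brightest probe set of each gene rimmed in black. Both sets of PMAIP1 lie at the left, at -0.55 and -0.62, and the 8 of MDM2 spread from -0.10 to 0.22.

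Other genes of the pathway were read from lists kept apart from the members. Of 40 further p53 targets, 38 were measured, 10 of them dim. Their median log2 fold change was 0.07, 13 were higher without overlap (34.2%, against 21.7% of all genes) and 6 lower (15.8%, against 19.1%). None passed limma's test over all genes, while 5 higher and 2 lower genes had an unadjusted p under 0.05 (13.2% and 5.26%, against 5.61% and 4.11% of all genes). Among the 5 higher genes, TRIM22 (0.68) and PRDM1 (0.38) were dim, so their values give no exact size. E2F7, a repressor of cell cycle genes, had the smallest p, with 6.79 and 6.97 in the LNCaP-ERG arrays and 7.38 and 7.40 in the LNCaP-vector arrays (log2 fold change -0.51, adjusted p = 0.29 from limma). SESN2, a paralogue of SESN1, had -0.38 (adjusted p = 0.32 from limma). GDF15, a secreted stress cytokine, lay at 12.75 and 12.72 in the LNCaP-ERG arrays against 12.46 and 12.44 in the LNCaP-vector arrays (log2 fold change 0.29, adjusted p = 0.37 from limma). TNFRSF10D, a decoy receptor of TRAIL, had 0.33 (adjusted p = 0.37 from limma).

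Upstream, 16 of 18 genes for p53 relatives, the damage kinases and the regulators of p53 were measured, and 0 passed limma's test. No higher and 1 lower gene had an unadjusted p under 0.05 (0% and 6.25%, against 5.61% and 4.11% of all genes). Their median log2 fold change was -0.05, with 4 higher and 5 lower without overlap (25% and 31.2%, against 21.7% and 19.1% of all genes). The lower gene was CHEK2, a checkpoint kinase that phosphorylates p53, at 7.63 and 7.65 in the LNCaP-ERG arrays and at 7.87 and 7.88 in the LNCaP-vector arrays (log2 fold change -0.24, adjusted p = 0.44 from limma). TP53BP1, a scaffold of double-strand break repair, had 0.17, CREBBP, an acetyltransferase of p53, had 0.16, and CHEK1, the kinase downstream of ATR, had -0.15.

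Downstream of p21, p53 is known to lower cell cycle genes through the DREAM repressor complex. Of 16 such genes, 13 were lower without overlap (81.2%, against 19.1% of all genes) and 0 higher, with a median log2 fold change of -0.16, and PLK1, CCNB2 and CDC25C overlapped. None passed limma's test, while 3 lower genes and 0 higher ones had an unadjusted p under 0.05 (18.8% lower, against 4.11% of all genes). RRM2, a subunit of ribonucleotide reductase, lay at 10.04 and 9.97 in the LNCaP-ERG arrays and at 10.23 and 10.35 in the LNCaP-vector arrays (log2 fold change -0.28, adjusted p = 0.42 from limma). TTK, a spindle checkpoint kinase, had -0.24, MCM5, a replicative helicase subunit, had -0.21, and BUB1, another checkpoint kinase, had -0.23. These genes also follow how fast cells divide, which the arrays do not measure.

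Some p53 targets answer to other stresses too. PMAIP1 and SESN2 are also induced by ATF4, the transcription factor of amino acid and endoplasmic reticulum stress. Of 18 ATF4 and CHOP stress genes, SESN2 among them, 12 were lower without overlap (66.7%, against 19.1% of all genes) and 1 higher (5.56%, against 21.7%), with a median log2 fold change of -0.24. None passed limma's test, while 9 lower genes and 0 higher ones had an unadjusted p under 0.05 (50% lower, against 4.11% of all genes). TRIB3, a pseudokinase induced by ATF4, lay at 8.83 and 8.77 in the LNCaP-ERG arrays and at 9.26 and 9.33 in the LNCaP-vector arrays (log2 fold change -0.49, adjusted p = 0.26 from limma). CHAC1, a glutathione-degrading enzyme, had -0.57 and ATF3, a stress transcription factor, had -0.41. Their part in the PMAIP1 value was not tested. PLK2, PLK3 and GADD45B are also switched on early by growth signals. Of 14 measured immediate early genes, 6 of them dim, 5 were higher and 3 lower without overlap (35.7% and 21.4%, against 21.7% and 19.1% of all genes), with a median log2 fold change of 0.08. JUNB alone had an unadjusted p under 0.05 (7.14% higher, against 5.61% of all genes; log2 fold change 0.27, adjusted p = 0.49 from limma).

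**Figure D4:**
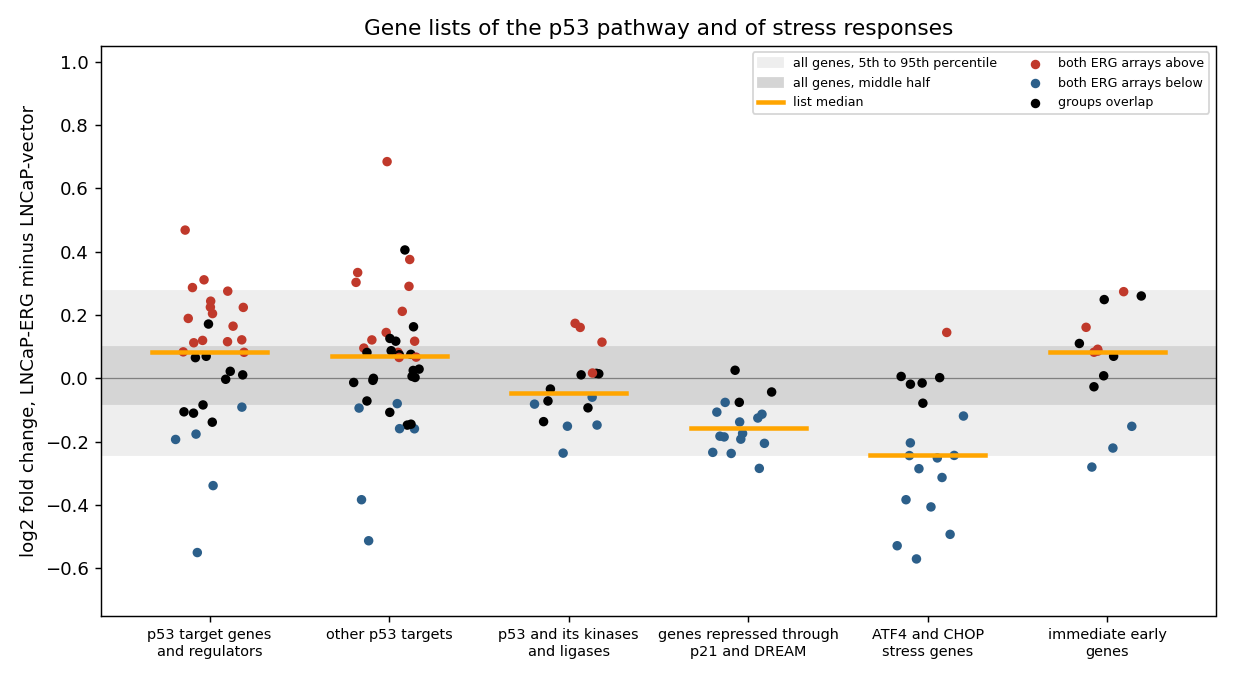
Log2 fold change of LNCaP-ERG over LNCaP-vector (y axis) of each gene in 6 lists (x axis), with the list median as an orange bar and the percentiles of all genes as grey bands. The medians are 0.08 for the p53 target genes and regulators and 0.07 for the other p53 targets, and -0.16 and -0.24 for the DREAM and the ATF4 and CHOP lists.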

How the data were processed

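RNA of LNCaP-ERG and LNCaP-vector cells was read on 4 Affymetrix arrays, 2 per group by the labels. The deposited values are probe set intensities, which the authors made with dChip and RMAexpress (versions and inner steps not given in the sources used here). Their range, with maxima of 14962 to 15344, was read as linear, so log2 was taken. Of 51965 probe sets, 39466 name 1 gene in the platform annotation, 838 several and 11661 none, and 2 with a missing value were left out. Of the named sets used, 39413 of 39464 had an Entrez ID in RefSeq. Each gene was represented by its brightest probe set, over which arrays differed by an SD of 0.18 to 0.19 within groups and 0.19 to 0.24 between them.

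A linear model per gene was fitted in R 4.3.3 with limma 3.58.1, lmFit then eBayes (2 residual and 3.23 prior degrees of freedom), with Benjamini-Hochberg adjustment over all genes or, separately, all probe sets. The fit was tested on simulated data. Members and lists were chosen with earlier results of these data known. Members were given in full if they were MDM2, CDKN1A or BAX, had an unadjusted p under 0.05, or differed by at least 0.3 on the log2 scale without overlap. Elsewhere the up to 4 smallest p of a list were named, and any further gene was picked with its value known. The 90th percentile of the organ genes was chosen after MB and MBP were seen at log2 group means of 10.8 to 10.9 and 8.12 to 8.20. By the 95th percentile, 6.79, 6 members were dim. Motifs were searched in Python 3.11.15, and plots drawn with matplotlib 3.10.9. Alternatives were another moderation, a filter on dim genes, other choices of probe set, other normalizations, the methods' t-test, a replicate block and fits without single arrays. Arrays have no read depth, and their number limits the precision.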

Additional observations from a re-analysis of the deposited data

How the results depend on the processing

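The 9 members given in full kept their sign under every alternative that gave them a value, but most alternatives could not have changed it. Their groups did not overlap, so leaving out 1 array cannot turn a sign. Another moderation, the filter on dim genes, joint adjustment of every probe set, the replicate block and the methods' t-test leave the log2 fold change as it was. Only other choices of probe set and other normalizations could change a sign. Of the values under all alternatives, 121 stayed on the same side of the adjusted threshold and 1 passed, that of PMAIP1 under trended and robust moderation. BAX, PMAIP1, CYFIP2 and TP53I3 have no plain probe set and no value there. Of all genes, 1 was higher and 1 lower past an adjusted p of 0.05 in limma. The counts were 48 and 41 under trended and robust moderation, 31 and 23 without the dimmer genes, 6 and 8 with probe sets averaged per gene, 3 and 3 with housekeeping centring, and 2 higher with quantile normalization again. With plain probe sets 2 were lower. They were 0 and 0 with every probe set adjusted together, the methods' t-test or any 1 array left out.

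With the replicate block, also, 0 genes passed in either direction, while 6 higher and 2 lower members had an unadjusted p under 0.05 (beside 5.53% and 4.21% of all genes). The titles share replicate numbers, but the deviations of same-numbered arrays correlated at only 0.08, and no source says that they pair. Members higher at an unadjusted p under 0.05 were 11 under trended and robust moderation (beside 5.98% of all genes) and 2 with plain probe sets (beside 4.77%), where 22 members had a value and 1 was lower (beside 4.02%). With single arrays left out, 2 to 3 were higher (beside 3.28% to 5.91% of all genes) and 2 to 3 lower (beside 2.73% to 4.42%). The median of the members was 0.11 without the dimmer genes and also without the dim members, a setting chosen after seeing the data, and 0.081 to 0.127 with single arrays left out. The causes were not tested. Plain probe sets leave fewer members, but MDM2 and CDKN1A keep a value there and are not among the 2 higher ones. Their plain sets are not their brightest, and that of CDKN1A is dim. The log2 fold changes at these sets were 0.01 for MDM2 and 0.20 for CDKN1A, against 0.22 and 0.31 at the brightest.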
